A study of Yarrowia lipolytica with 11 samples.

Results

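The untreated mutant was compared with the wild type grown in hexanoic acid in the oleaginous yeast Yarrowia lipolytica. The comparison was defined by the labels, not by expression: the 2 RNA-seq libraries of the mutant without acid were set against the 3 libraries of the acid-treated wild type (hexanoic acid, a medium-chain fatty acid, at 1 g/L), so 5 of the 11 libraries and all 7135 gene rows entered it. The mutant lacks pex10 and harbors a plasmid for DGA1 overexpression, and both groups grew in YPC medium to exponential phase from separate colonies, per the labels' protocols. The wild type carries neither change, its strain name is not given in the sources used here, and neither is the promoter of the plasmid or the extent of the deletion. The untreated wild type and the acid-treated mutant (3 libraries each) served as reference levels. The question was what the mutant without acid shares with the acid state of the wild type, and which genes still separate them. Strain and acid both differ between the groups, so their parts cannot be told apart from these 5 libraries.

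Yeasts oxidise fatty acids in peroxisomes, where acyl-CoA oxidases, a multifunctional enzyme and a thiolase shorten the chain and release acetyl-CoA. The TCA and glyoxylate cycles consume that acetyl-CoA, while fatty acid synthase and its suppliers run the opposite route. PEX10 encodes a membrane protein of the machinery that returns the import receptor of peroxisomal enzymes, and DGA1 encodes a diacylglycerol acyltransferase that makes triacylglycerol for storage. The tables pair no names with nuclear locus tags. Names and roles below come from published assignments that no reference table used here could test.

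Library totals were 13170304 and 14348456 counts in the untreated mutant, and 12753299, 9988288 and 14698252 in the wild type with acid. Levels are in CPM, counts scaled by TMM to a common library size. The untreated mutant libraries differed from each other by over 1 log2 unit in 10.4% of the 6301 tested genes, against 3.55% to 5.63% between pairs of acid-treated wild-type libraries. Such differences held for 2.09% to 11% of genes between untreated wild-type pairs, and for 1.95% to 8.38% between pairs of the mutant with acid. The untreated mutant libraries also stood at different distances from the other groups. By root mean square difference in log2 CPM, replicate 1 was 1.05 to 1.11 from the acid-treated wild type and 1.00 to 1.22 from the untreated wild type, and replicate 2 was 0.906 to 0.980 and 1.20 to 1.43 from them. Replicate 2 was thus the nearer of the pair to the acid state, and results that change without 1 of these libraries are given with that value. In RNA from whole cultures, fewer cells that use a gene and less RNA of it per cell cannot be told apart.

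The genes altered in the mutant were read first. PEX10 (YALI0_C01023g) had 66 and 115 reads in the untreated mutant, which is 5.01 and 7.35 CPM, against 18.6, 10.7 and 12.8 CPM in the wild type with acid. The groups did not overlap, and the log2 difference was −1.18 ± 0.34 (adjusted p = 0.0293). Reads on the deleted gene remained in both mutant libraries. Leaving out mutant replicate 1 ended the PEX10 call (−0.93), as did leaving out wild-type replicate 1 (−0.92) or replicate 3 (−1.24), scaling by total counts (−1.03) or fitting only the 2 groups (−1.16). DGA1 (YALI0_E32769g) had 42403 and 51358 reads in the mutant, 3221 and 3284 CPM, against 111, 120.4 and 174, 24.1-fold higher in the mutant (log2 4.59 ± 0.41, adjusted p = 4.74e-05). Counts per gene do not separate plasmid from chromosome.

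Most genes were not called different. A gene was called at a Benjamini-Hochberg adjusted p under 0.05 in edgeR's quasi-likelihood test, which held for 1250 of 6301 genes (19.8%), 731 higher (11.6%) and 519 lower (8.24%) in the untreated mutant. At a difference shown to exceed 2-fold (edgeR's glmTreat, adjusted p under 0.05) there were 309 genes (4.9%), 197 higher (3.13%) and 112 lower (1.78%), and the 5 libraries of 3039 genes (48.2%) fell into groups that did not overlap. For 3265 genes (51.8%) the 95% interval of the difference lay inside 1 log2 unit on either side of 0, meaning less than a 2-fold difference, and 25 of these were also called. Another 1811 were neither called nor held inside that range, and for these neither a difference nor its absence was shown. The median log2 difference over all genes was 0.01. Scaling by total counts moved that median to 0.17 and the share of higher calls from 58.5% to 70.3%. Without mutant replicate 1 there were 746 calls (445 higher, 301 lower) and 173 past 2-fold, without wild-type replicate 3 there were 827 (326 lower) and 200 past 2-fold, and without wild-type replicate 2 there were 469 higher calls. The main fit took its spread from all 11 libraries. Fitting only the 2 groups gave 854 calls (500 higher, 354 lower), and DESeq2 gave 1506.

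**Figure D1:**
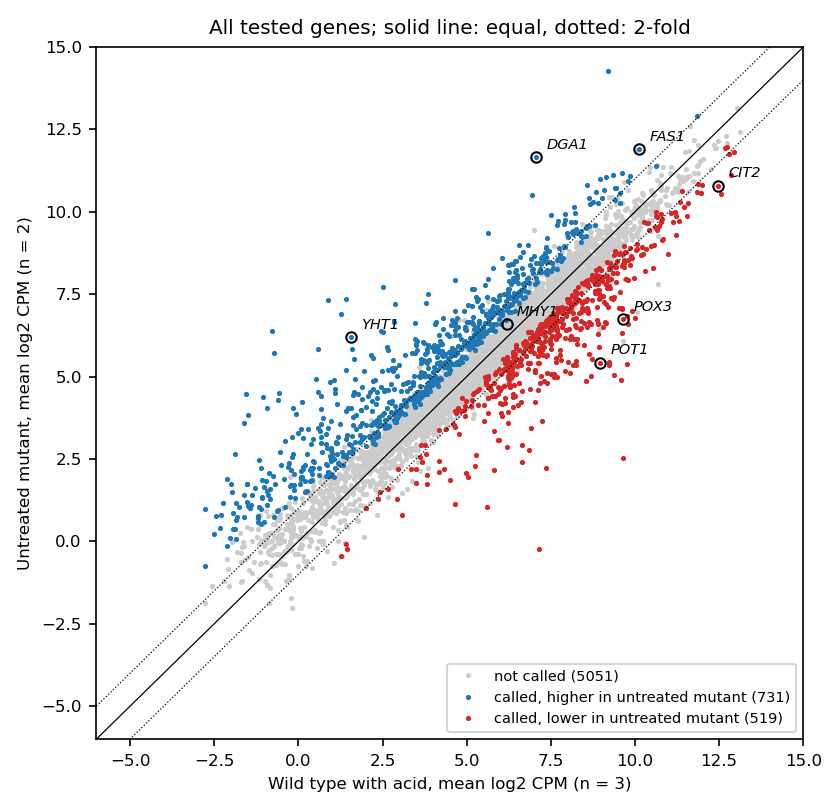
Mean log2 CPM of each tested gene in the wild type with acid (x axis, n = 3) and the untreated mutant (y axis, n = 2), with called genes in colour and 7 named genes ringed. DGA1, FAS1 and YHT1 lie above the line of equality, POT1, POX3 and CIT2 below it, and MHY1 between the 2-fold lines.

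Peroxisomal beta-oxidation separated the groups. Of its 12 listed genes 9 were lower in the untreated mutant and none higher, where 8.24% of all genes were lower, and the median log2 difference was −1.68. Against the untreated wild type, 10 of the 12 were higher in the acid-treated wild type (28.5% of all genes were), while in the untreated mutant 2 were higher and 3 lower (22.8% and 15.3% of all genes). Both of these comparisons use the same untreated libraries. POT1 (YALI0_E18568g), the thiolase of the last step, had levels of 26.1 and 69.4 CPM without acid in the mutant and of 539, 389.7 and 583 CPM in the acid-treated wild type. The highest mutant library was far below the lowest acid-treated one, and the difference was 10.5-fold (log2 −3.40 ± 0.40, adjusted p = 0.000227). In the untreated wild type POT1 was at 96.5, 67.4 and 82.6 CPM, so 1 mutant library was within that range and the other below it. Without mutant replicate 2 the POT1 difference was −4.27, without changing the call.

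The acyl-CoA oxidases, which catalyse the first step, were not alike. POX3 (YALI0_D24750g) was at 80.4 and 140.3 CPM against 802, 730.2 and 897 (log2 −2.87 ± 0.30, adjusted p = 0.000109), and POX2 (YALI0_F10857g) at 37.7 and 93.0 CPM against 479, 322 and 745 (log2 −2.98 ± 0.48, adjusted p = 0.00144). The untreated wild type had 177 to 205 CPM for POX3, above both mutant libraries, and 50.1 to 94.3 CPM for POX2, which overlapped them. POX5 (YALI0_C23859g), named after its values were seen, was at 109.8 and 251 CPM in the mutant against 567, 554 and 773 with acid and 36.2 to 53.1 in the untreated wild type, between both wild-type groups, and it was called lower (log2 −1.81 ± 0.33, adjusted p = 0.00318). Without mutant replicate 2 the differences were −3.77 for POX2 and −2.52 for POX5. POX1 (YALI0_E32835g) was low in every library and was the list's one gene with its interval inside 1 log2 unit: 4.71 and 6.46 CPM against 4.85, 6.11 and 6.28 (log2 −0.04 ± 0.33, interval −0.76 to 0.69).

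The other called members were carriers, a later step and another oxidase. ANT1 (YALI0_E03058g), the carrier that brings ATP into peroxisomes, was at 28.3 and 40.3 CPM against 237, 157 and 196 (log2 −2.52 ± 0.34, adjusted p = 0.000607). ANT1 was also below the untreated wild type, which had 107, 186 and 109 CPM. The fatty acid ABC transporter subunits PXA1 (YALI0_A06655g) and PXA2 (YALI0_D04246g), the multifunctional enzyme MFE1 (YALI0_E15378g) and POX6 (YALI0_E06567g) made up the rest of the 9, with log2 differences of −1.14 ± 0.22, −1.07 ± 0.21, −1.56 ± 0.25 and −1.05 ± 0.23, all named after their values were seen. The POX6 call was lost without mutant replicate 1 (−0.93). CTA1 (YALI0_E34265g), a catalase gene that was also named after its values were seen, did not pass (log2 −1.94 ± 0.64, adjusted p = 0.0556). Its mutant libraries had 20.4 and 36.9 CPM, and the acid-treated wild type had 22.8, 189 and 119. Wild-type replicate 1 was the low one of the 3, and without it CTA1 was called (−2.43), as it was in DESeq2 (−1.95) and without the filter on low counts.

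Genes that activate or shuttle fatty acids split. FAT1 (YALI0_E16016g), of the fatty acid transport and activation family, was at 50.4 and 81.1 CPM in the mutant against 350.2, 252 and 339 in the wild type with acid (log2 −2.25 ± 0.33, adjusted p = 0.000796), and the untreated wild type lay between them at 200.5 to 219.9 CPM. The FAT1 difference between acid-treated and untreated wild type was not called (log2 0.57 ± 0.27, adjusted p = 0.0881 in edgeR's test). The untreated mutant was called below the untreated wild type (log2 −1.68 ± 0.32, adjusted p = 0.00177). FAA1 (YALI0_D17864g), the main fatty acyl-CoA synthetase, was at 1329 and 1236 against 971, 1263 and 1292 CPM, with overlapping groups and an interval of −0.36 to 0.61 around 0.13. CAT2 (YALI0_B10340g), carnitine acetyltransferase, which hands acetyl groups on to mitochondria, was at 162 and 165 CPM against 663, 591 and 692 (log2 −1.99 ± 0.22, adjusted p = 0.000158). Its 2 mutant libraries were close to each other and below all 3 untreated wild-type libraries (195 to 217 CPM). That difference was not called (log2 −0.33 ± 0.21, adjusted p = 0.217 in edgeR's test).

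**Figure D2:**
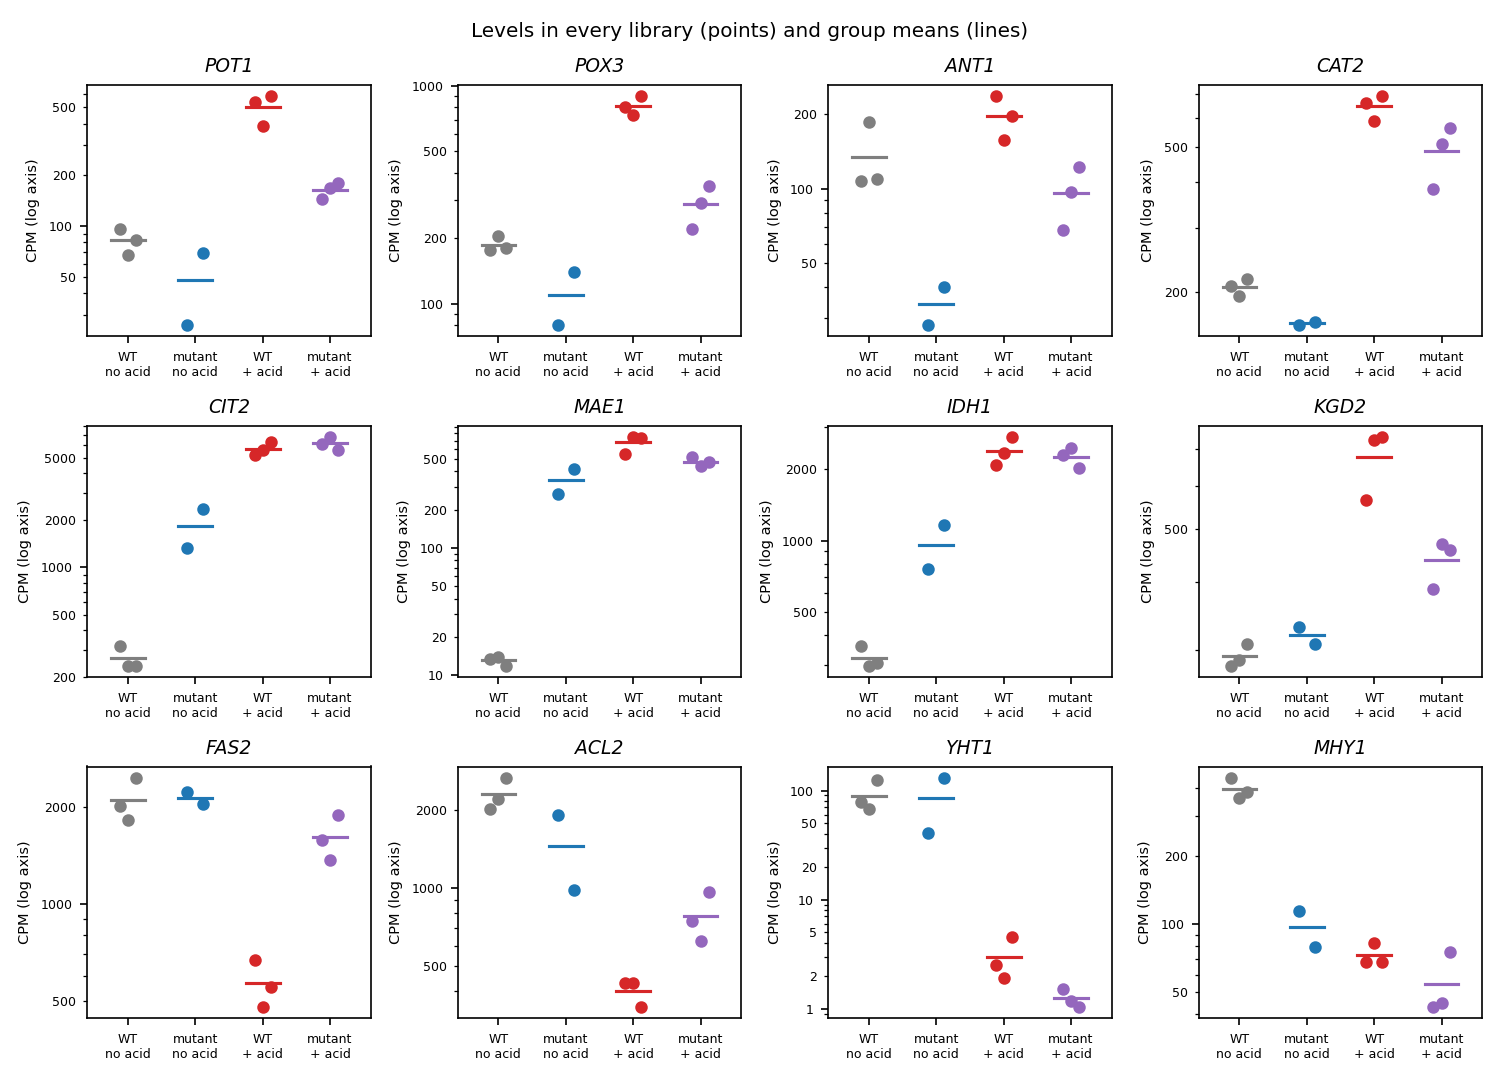
CPM of 12 genes in every library (points, log axes that differ between panels) with group means as lines, for the untreated wild type, the untreated mutant, the wild type with acid and the mutant with acid. POT1, POX3, CAT2 and KGD2 of the untreated mutant lie near or below the untreated wild type, CIT2, MAE1 and IDH1 lie between both wild-type groups, FAS2 and YHT1 overlap the untreated wild type, and MHY1 overlaps the wild type with acid.

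TCA cycle genes were intermediate in the untreated mutant. Of 12 listed genes 8 were lower than in the acid-treated wild type and none higher, against 8.24% and 11.6% of all genes (median log2 difference −1.04, none past 2-fold by glmTreat). At the same time 8 were higher than in the untreated wild type (22.8% of all genes were) and 9 were higher in the acid-treated than in the untreated wild type (28.5% of all genes). These last 2 comparisons share the untreated wild-type libraries. IDH1 (YALI0_E05137g), a subunit of the NAD-dependent isocitrate dehydrogenase, was at 762 and 1157 CPM in the mutant, 2080.4, 2332 and 2726 in the acid state and 361, 297 and 306 in the untreated wild type. No library of the 3 groups overlapped another group, and the mutant was 2.48-fold below the acid-treated wild type (log2 −1.31 ± 0.25, adjusted p = 0.00342). IDH2 (YALI0_D06303g), the partner subunit, differed by −1.11 ± 0.23 and CIT1 (YALI0_E00638g), mitochondrial citrate synthase, by −1.27 ± 0.26.

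KGD2 (YALI0_E16929g), a subunit of oxoglutarate dehydrogenase, had another pattern. It stood at 332 and 309 CPM in the mutant against 565, 727 and 737 with acid (log2 −1.08 ± 0.20, adjusted p = 0.00327), and its level without acid was close in both strains (281 to 308 CPM in the wild type, log2 strain difference 0.13 ± 0.19, adjusted p = 0.623). SDH1 (YALI0_D11374g), of succinate dehydrogenase, and ACO1 (YALI0_D09361g), aconitase, were inside the 1 log2 range at −0.05 ± 0.26 and 0.33 ± 0.25. MDH1 (YALI0_D16753g), malate dehydrogenase, named after its values were seen, was at 1776 and 1911 CPM in the mutant, 3369, 3647 and 4268 with acid and 103 to 155 in the untreated wild type (log2 −1.03 ± 0.23, adjusted p = 0.00945). Without mutant replicate 1, 3 of the 8 TCA calls remained in number: CIT1 (−1.15), IDH2 (−0.88), MDH1 (−0.98), KGD1 (−0.84) of oxoglutarate dehydrogenase and LSC1 (−0.82) of succinyl-CoA ligase no longer passed, with adjusted p from 0.0536 to 0.0820. LSC1 was lost without replicate 2 as well (−0.81), and fumarase, FUM1 (log2 −0.68 ± 0.24, adjusted p = 0.0725), passed there (−0.98) and in DESeq2 (−0.68). KGD1 (YALI0_E33517g), LSC1 (YALI0_E24013g) and FUM1 (YALI0_C06776g) were named after their values were seen.

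In the glyoxylate cycle and gluconeogenesis list, 5 of 10 genes were lower in the untreated mutant and none higher, against 8.24% and 11.6% of all genes. The carnitine acetyltransferase CAT2, described above, is on this list and had the largest difference of the 5. CIT2 (YALI0_E02684g), a second citrate synthase, was at 1326 and 2369 CPM in the mutant against 5169, 5607 and 6258 with acid and 316, 237 and 236 in the untreated wild type. It was 3.07-fold below the acid state (log2 −1.62 ± 0.28, adjusted p = 0.00229) and 7.02-fold above the untreated wild type. MDH2 (YALI0_E14190g), another malate dehydrogenase, was also between both wild-type groups, at 434 and 505 CPM against 1101, 1345 and 1384 and 146 to 170.3 (log2 −1.44 ± 0.22). MLS2 (YALI0_E15708g), listed as a malate synthase, differed by −1.01 ± 0.31 (adjusted p = 0.0414), with mutant libraries at 223 and 467 CPM. Without mutant replicate 2 the MLS2 difference was −1.64. The call was lost without mutant replicate 1 (−0.57) or wild-type replicates 1 (−1.09), 2 (−1.10) or 3 (−0.84), and in the fit to only the 2 groups. The call of FBP1 (YALI0_A15972g), fructose bisphosphatase, named after its values were seen (log2 −0.67 ± 0.19), was lost without any 1 of the 5 libraries (−0.58, −0.77, −0.61, −0.74 and −0.67), and with total counts or only the 2 groups. The list had 3 calls without mutant replicate 1 or without wild-type replicate 2 or 3, and 4 calls with total counts.

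Isocitrate lyase, the entry enzyme of the glyoxylate cycle, was not called. ICL1 (YALI0_C16885g) was at 1588 and 1072 CPM in the mutant against 1766, 1596 and 1826 with acid (log2 −0.38 ± 0.26, adjusted p = 0.343, interval −0.94 to 0.18), so that the groups did not overlap by a narrow margin, where the untreated wild type had 3293, 2905 and 3576. All 5 libraries compared were thus below every untreated wild-type library. PYC1 (YALI0_C24101g), pyruvate carboxylase, differed by −0.47 ± 0.22 with an interval of −0.95 to 0.01. PCK1 (YALI0_C16995g), which makes phosphoenolpyruvate for gluconeogenesis, was at 125 and 488 CPM in the mutant and 544, 939.9 and 1073 with acid (log2 −1.48 ± 0.54, adjusted p = 0.0799). It was named after its values were seen, and was called without mutant replicate 2 (−2.77) and in DESeq2 (−1.47). ACS (YALI0_F05962g), acetyl-CoA synthetase, named on the same basis, was not called in edgeR, with an estimate in the other direction (log2 0.76 ± 0.25, adjusted p = 0.0563). It was called in DESeq2 (0.75), with total counts (0.90) and without wild-type replicate 1 (0.90).

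Fatty acid synthesis lay the other way. Of 9 listed genes 6 were higher in the untreated mutant than in the acid-treated wild type and none lower, where 11.6% of all genes were higher, and the median log2 difference was 1.23. Against the untreated wild type, 7 of the 9 were lower in the acid-treated wild type (28% of all genes were), and in the untreated mutant none was called in either direction by edgeR's test. FAS2 (YALI0_B19382g), a fatty acid synthase subunit, was at 2227 and 2049.7 CPM in the mutant against 671, 480.0 and 554 with acid (log2 1.91 ± 0.23, adjusted p = 0.000299). FAS1 (YALI0_B15059g), its partner, was at 4004 and 3662 against 1335, 902 and 1154 CPM, 3.39-fold higher (log2 1.76 ± 0.24). For FAS1 and FAS2 the mutant libraries fell within the range of the untreated wild type, 2802 to 4393 CPM and 1833 to 2468 CPM.

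ATP citrate lyase, which makes cytosolic acetyl-CoA for fatty acid synthesis, followed with more spread between the mutant libraries. ACL1 (YALI0_E34793g) was at 2265 and 1162 CPM against 595, 516 and 523 (log2 1.65 ± 0.29, adjusted p = 0.00219), and ACL2 (YALI0_D24431g) at 1919.7 and 986 CPM against 429, 430.2 and 348 (log2 1.85 ± 0.29, adjusted p = 0.00136). In both subunits mutant replicate 2 was the lower library and still above every acid-treated one. The untreated wild type had 1796 to 2499 CPM of ACL1 and 2027 to 2661 CPM of ACL2. Mutant replicate 2 was below these ranges for ACL1 and both mutant libraries for ACL2. The ACL2 difference from the untreated wild type was not called (log2 −0.66 ± 0.30, adjusted p = 0.104 in edgeR's test). ACC1 (YALI0_C11407g), acetyl-CoA carboxylase, and OLE1 (YALI0_C05951g), the stearoyl-CoA desaturase, completed the 6 with 1.23 ± 0.23 and 0.80 ± 0.23, and were named after their values were seen. OLE1 was lost without mutant replicate 1 (0.48), wild-type replicates 1 (0.81), 2 (0.80) or 3 (0.79), and with only the 2 groups (0.81). ELO2 (YALI0_B20196g), an elongase, was inside the 1 log2 range at −0.43 ± 0.18, with 116 and 102 CPM against 171, 141 and 129.7.

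The list of NADPH supply and the pentose phosphate route had 6 genes, 1 of them higher and 1 lower, which is near the 11.6% and 8.24% of all genes. IDP1 (YALI0_F04095g), the NADP-dependent isocitrate dehydrogenase, was at 2444 and 1599 CPM in the mutant against 954, 748 and 974 with acid (log2 1.18 ± 0.23, adjusted p = 0.00443), with the untreated wild type between both mutant libraries at 1721 to 2178. MAE1 (YALI0_E18634g), malic enzyme, was at 265 and 422 CPM against 549, 748 and 735 (log2 −0.98 ± 0.24, adjusted p = 0.0150), while the untreated wild type had 13.4, 14.0 and 11.8 CPM. On the log2 scale its level was 4.71 ± 0.26 above the untreated wild type in the mutant and 5.69 ± 0.26 above it with acid, against the same libraries. Without mutant replicate 1 neither IDP1 (0.84) nor MAE1 (−0.68) was called, and MAE1 was also lost without wild-type replicate 2 (−0.90) and with only the 2 groups. GND1 (YALI0_B15598g), phosphogluconate dehydrogenase, and TKL1 (YALI0_E06479g), transketolase, were inside the 1 log2 range at 0.25 ± 0.27 and −0.38 ± 0.25. For GND1 the 5 libraries compared spanned 2741 to 4539.7 CPM, all below the untreated wild type at 6038 to 10085.

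**Figure D3:**
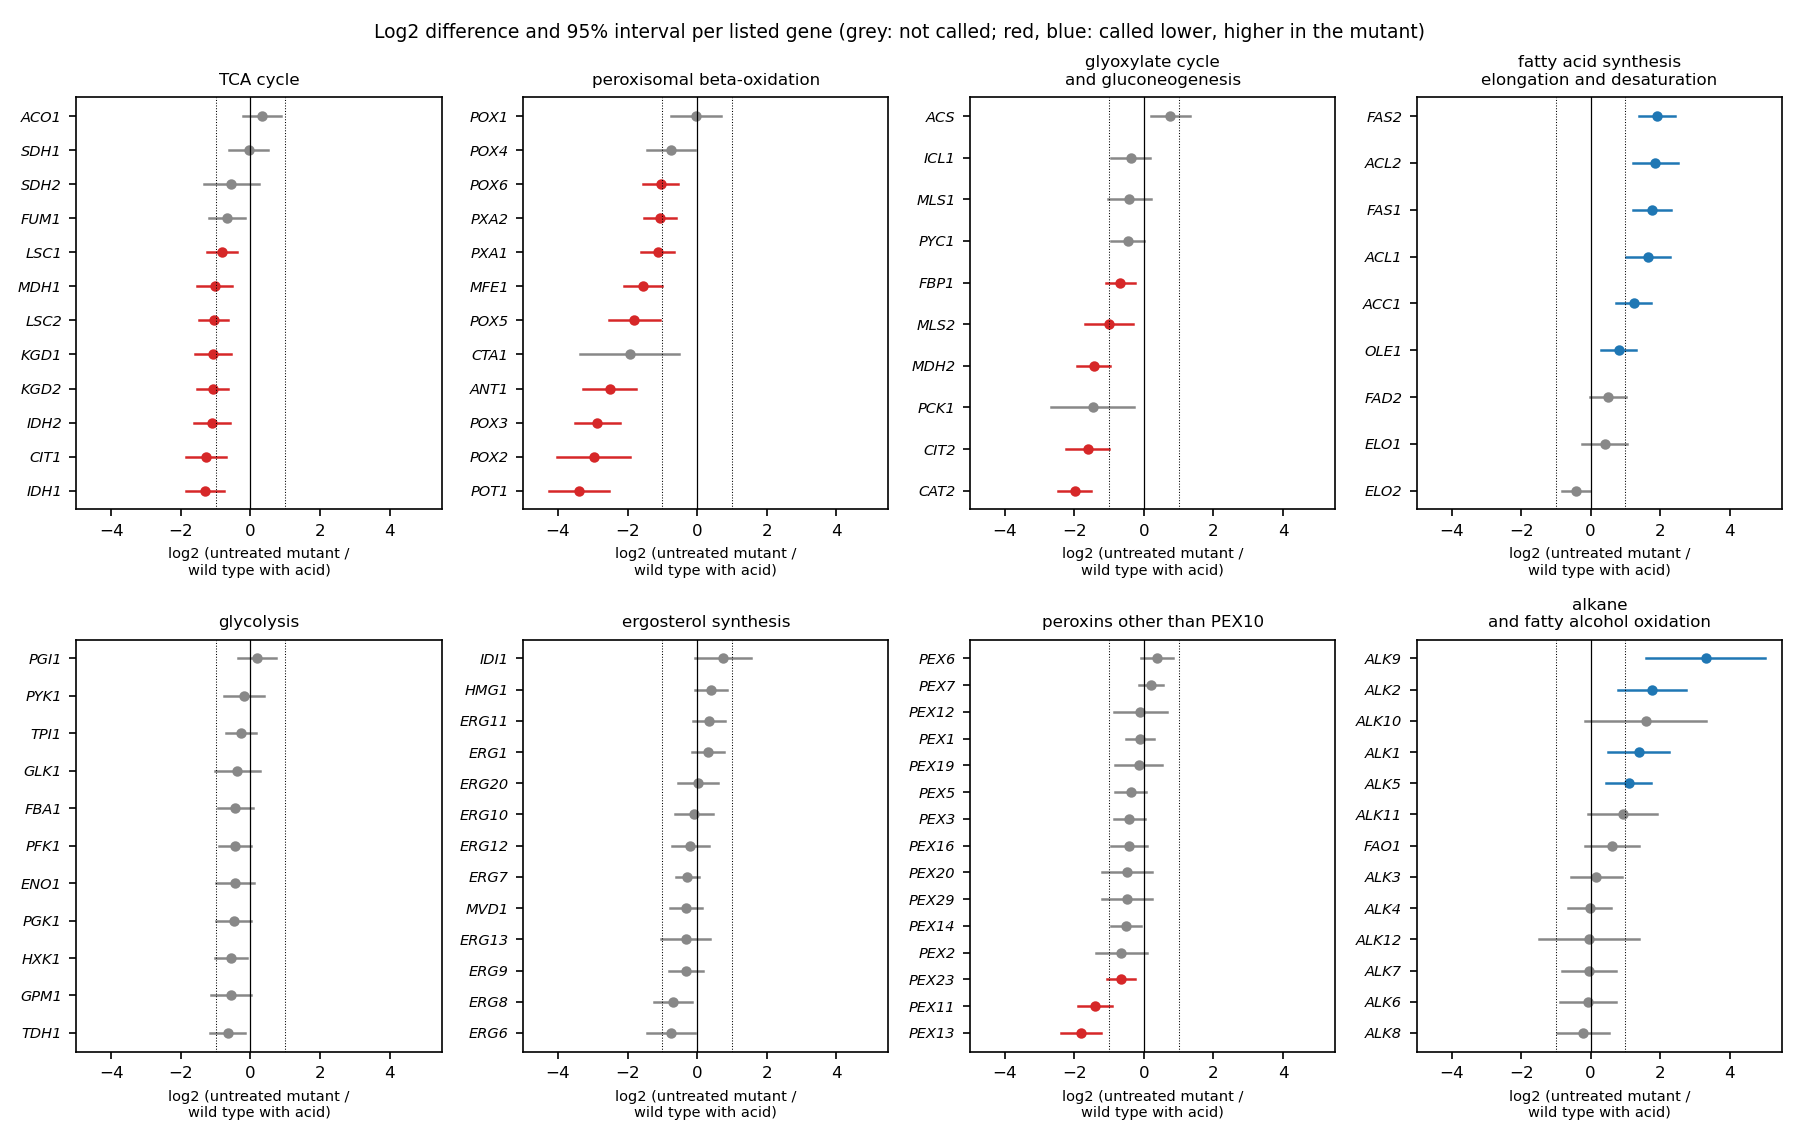
Log2 difference between the untreated mutant and the wild type with acid (points) with its 95% interval (lines) for each gene of 8 lists, dotted lines marking 2-fold. Blue and red genes were called higher and lower in the mutant: 9 beta-oxidation and 8 TCA genes are red, 6 fatty acid synthesis genes blue, and the glycolysis and ergosterol panels hold none.

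Glycolysis and ergosterol synthesis held no called gene in edgeR's test, where 19.8% of all genes were called. None of 11 glycolytic genes was called in edgeR (2 had an unadjusted p under 0.05, and DESeq2 called 2, the hexokinase HXK1 at −0.56 and the dehydrogenase TDH1 at −0.66, named for that call), and for 7 of 11 the interval lay inside 1 log2 unit, against 51.8% of all genes. The median log2 difference was −0.44, and 10 of 11 estimates were below 0. ENO1 (YALI0_F16819g), enolase, was at 2332 and 1427 CPM in the mutant and 2362, 2622 and 2691 with acid (log2 −0.44 ± 0.25). PGI1 (YALI0_F07711g), glucose phosphate isomerase, was at 1919.6 and 1341 CPM in the mutant against 1243, 1346 and 1729 (log2 0.18 ± 0.25). The untreated wild type had 1535 to 1934 CPM of ENO1 and 1423 to 1903 CPM of PGI1.

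Later glycolytic enzymes far from the untreated wild type were named after their values were seen. GPM1 (YALI0_B02728g), phosphoglycerate mutase, was at 1614 and 1474 CPM in the mutant, 1764, 2438 and 2628 with acid and 251 to 399 in the untreated wild type. PGK1 (YALI0_D12400g), phosphoglycerate kinase, was at 738 and 679.8 CPM in the mutant, at 1025, 1002 and 944 with acid and at 151 to 229 in the untreated wild type. Against the same untreated libraries, GPM1 was higher by 2.17 ± 0.26 in the mutant and 2.73 ± 0.25 with acid. The direct differences were −0.56 ± 0.27 (interval −1.14 to 0.02) for GPM1 and −0.48 ± 0.23 (interval −0.98 to 0.01) for PGK1.

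**Figure D4:**
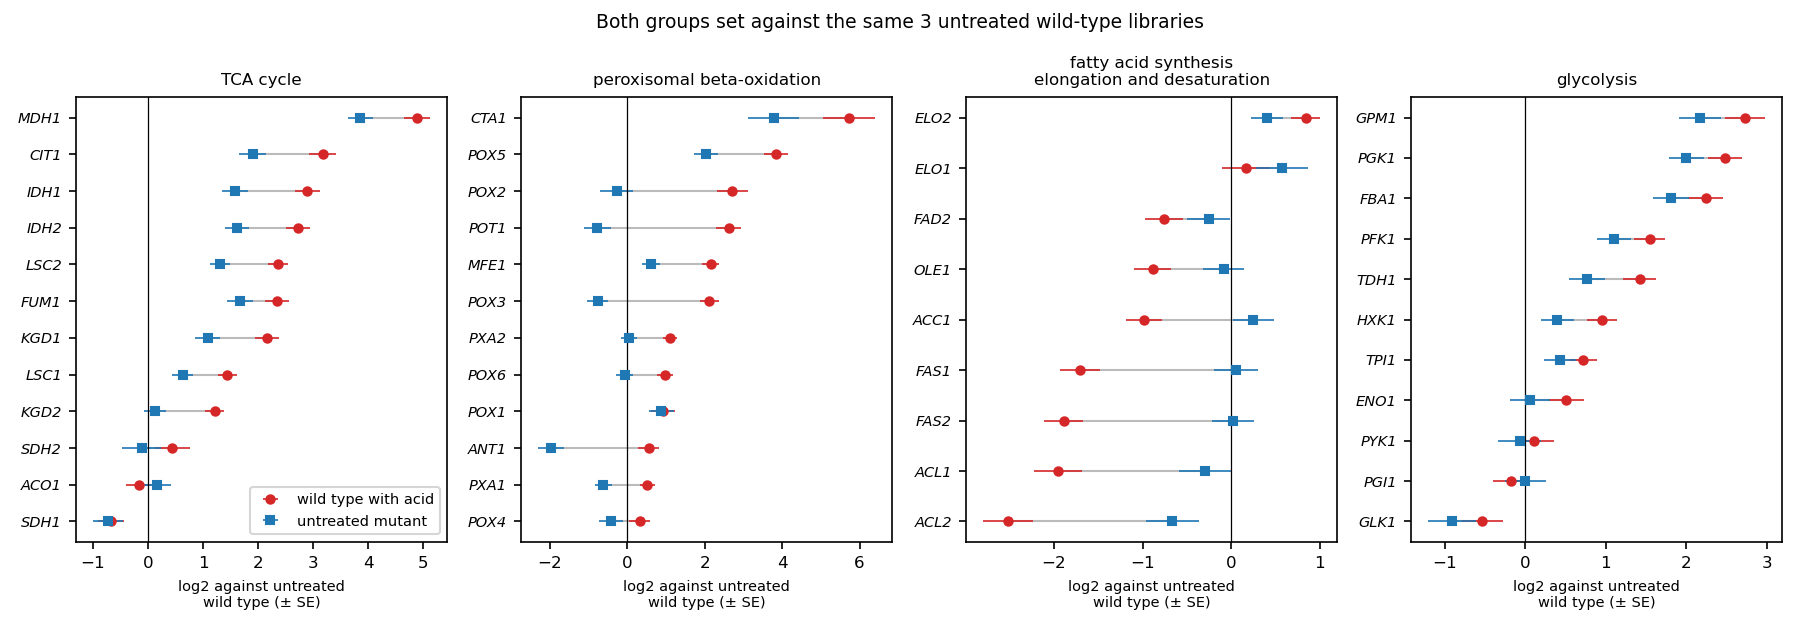
Log2 differences from the untreated wild type (± SE) of the untreated mutant (blue squares) and the wild type with acid (red circles) for 4 lists, both against the same 3 libraries. The squares lie left of most circles in the TCA cycle and closer to 0 than the circles for FAS1, FAS2, ACL1 and ACL2. For POT1, POX3, ANT1 and PXA1 they lie below 0 while the circles lie above it. Of these, the POT1 difference between untreated mutant and untreated wild type was not called (adjusted p = 0.0991 in edgeR's test). Nor was the ANT1 difference between acid-treated and untreated wild type (log2 0.55 ± 0.28, adjusted p = 0.112 in the same test).

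The hexose transporters differed strongly among themselves. YHT1 (YALI0_C06424g) was at 41.0 and 130.4 CPM in the untreated mutant against 2.50, 1.89 and 4.57 in the acid state, 28.2-fold higher in the mutant (log2 4.82 ± 0.50, adjusted p = 0.000114), and the untreated wild type had 77.7, 67.2 and 125 CPM. The YHT1 difference was 5.42 without mutant replicate 1 and 3.75 without replicate 2. YHT4 (YALI0_E23287g) was split between the mutant libraries, 258 and 1476 CPM, where the acid-treated wild type had 1339, 1474 and 2241 and the untreated wild type 149 to 176. Replicate 2 was thus inside the acid range and replicate 1 nearer to the untreated wild type. With both, YHT4 was not called (log2 −0.96 ± 0.53, adjusted p = 0.241), and without replicate 2 it was (−2.71, adjusted p = 0.000477). YHT3 (YALI0_F19184g) stayed between 0.620 and 1.47 CPM in the 5 libraries.

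Ergosterol synthesis, the sterol pathway of fungi, had no called gene among 13 (2 at an unadjusted p under 0.05, none in DESeq2), where 19.8% of all genes were called. It had 9 intervals inside 1 log2 unit (51.8% of all genes) and a median log2 difference of −0.20. ERG10 (YALI0_B08536g), acetoacetyl-CoA thiolase of the first step, was at 111 and 90.2 CPM in the mutant and 131, 95.4 and 93.9 with acid (log2 −0.09 ± 0.25, interval −0.63 to 0.45), both above the untreated wild type (51.0 to 73.4). ERG7 (YALI0_F04378g), lanosterol synthase, was at 104 and 109 CPM in the mutant against 126, 129 and 133 (log2 −0.28 ± 0.15). The widest gaps were IDI1 (YALI0_F04015g), isopentenyl diphosphate isomerase, at 0.73 ± 0.37, and ERG6 (YALI0_F08701g), a sterol methyltransferase, at −0.75 ± 0.32, both named after their values were seen, and neither passed (adjusted p = 0.196 and 0.126).

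Among 9 glycerolipid genes other than DGA1, 2 were lower in the mutant and none higher (8.24% and 11.6% of all genes). GUT1 (YALI0_F00484g), glycerol kinase, was at 1344 and 2358 CPM against 3535, 4072 and 4747 with acid and 655 to 761 in the untreated wild type (log2 −1.15 ± 0.28, adjusted p = 0.0132). It was not called without mutant replicate 1 (−0.80) or with only the 2 groups (−1.14). GPD1 (YALI0_B02948g), glycerol phosphate dehydrogenase, differed by −0.78 ± 0.23 (adjusted p = 0.0326), and leaving out mutant replicate 2 (−0.58), wild-type replicate 1 (−0.74) or replicate 3 (−0.66) ended the call, as did total counts or a fit to only the 2 groups. GUT2 (YALI0_B13970g), the FAD-dependent enzyme of the same step, and SCT1 (YALI0_C00209g), a glycerol phosphate acyltransferase, were inside the 1 log2 range at −0.40 ± 0.25 and −0.36 ± 0.19. Of 5 lipases 1 was lower (8.24% of all genes were). TGL4 (YALI0_F10010g), an intracellular triacylglycerol lipase, was at 48.6 and 42.3 against 67.2, 69.0 and 86.6 CPM (log2 −0.71 ± 0.19, adjusted p = 0.0241). It was not called without mutant replicates 1 (−0.81) or 2 (−0.61) or wild-type replicate 3 (−0.58), nor with total counts (−0.55) or only the 2 groups (−0.70).

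Cytochromes P450 of the CYP52 family, which hydroxylate alkanes and fatty acids, are named ALK in this yeast. Of 13 genes of alkane and fatty alcohol oxidation, 4 were higher in the untreated mutant and none lower, against 11.6% and 8.24% of all genes. ALK9 (YALI0_B06248g) was at 5.01 and 1.66 CPM against 0.0757, 0.888 and 0.155 (log2 3.31 ± 0.79, adjusted p = 0.0125), and ALK2 (YALI0_F01320g) at 25.2 and 23.1 against a range of 3.0 to 10.8 (log2 1.76 ± 0.44). ALK1 (YALI0_E25982g) and ALK5 (YALI0_B13838g) differed by 1.38 ± 0.40 and 1.09 ± 0.30. Levels were low, and without mutant replicate 1 none of the 4 was called (ALK9 2.32, ALK2 1.69, ALK1 1.41 and ALK5 1.00). ALK1 and ALK5 were also lost without mutant replicate 2 (1.35 and 1.18), without wild-type replicate 3 (1.27 and 1.16) and with only the 2 groups, ALK1 without wild-type replicate 2 (1.11), ALK5 without replicate 1 (0.93), and ALK9 without replicate 3 (2.93). The ALK9 difference was 3.91 without mutant replicate 2 and 4.74 without wild-type replicate 2. Against the untreated wild type, ALK1 and ALK5 were lower in the untreated mutant (log2 −1.16 ± 0.40 and −1.32 ± 0.29, adjusted p = 0.0386 and 0.00422 in edgeR's test). ALK9 and ALK2 were not called in that comparison (log2 −1.41 ± 0.62 and 0.61 ± 0.43, adjusted p = 0.0925 and 0.289). ALK3 (YALI0_E23474g) was close in both groups, 8.81 and 9.02 against 9.39, 6.44 and 8.06 CPM (log2 0.16 ± 0.33, interval −0.57 to 0.89), where the untreated wild type had 45.5, 106 and 55.9. ALK6 (YALI0_B01848g) was inside the range only as a mean of mutant libraries at 10.5 and 35.5 CPM around 24.9, 20.8 and 27.1, and without mutant replicate 2 it was called lower (−1.21).

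Among 15 peroxins other than PEX10, which build peroxisomes, 3 were lower in the mutant (8.24% of all genes were) and 9 had intervals inside 1 log2 unit, a share near the 51.8% of all genes (median log2 difference −0.42). PEX13 (YALI0_C05775g), of the docking complex, was at 24.7 and 49.8 CPM against 135, 131 and 128 with acid (log2 −1.81 ± 0.27, adjusted p = 0.000857), also below the 60.8 to 74.0 CPM of the untreated wild type, and differed by −2.41 without mutant replicate 2. PEX11 (YALI0_C04092g), which promotes peroxisome division, was at 54.6 and 63.4 against 158, 143 and 168 CPM (log2 −1.41 ± 0.22, adjusted p = 0.00128) and likewise below the untreated wild type (117 to 154 CPM). PEX23 (YALI0_D27302g), a membrane peroxin, lay between both wild-type groups, at 143 and 130.3 CPM against 173, 232 and 242 and 56.1 to 60.5 (log2 −0.66 ± 0.18, adjusted p = 0.0254). Leaving out mutant replicate 1 (−0.73) or 2 (−0.59), wild-type replicate 2 (−0.60) or 3 (−0.57), or the other groups ended that call. PEX3 (YALI0_F22539g), which recruits membrane proteins, and PEX5 (YALI0_F28457g), the import receptor, were inside the range at −0.42 ± 0.20 and −0.38 ± 0.20.

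Of 7 regulators 5 had intervals inside the range, as had 51.8% of all genes, and 1 was called, against 19.8% of all genes. MHY1 (YALI0_B21582g), a zinc finger regulator of the dimorphic switch, was at 115 and 79.5 CPM in the untreated mutant and 68.0, 82.8 and 68.3 with acid, where the untreated wild type had 443, 362 and 382. The direct difference was 0.41 ± 0.26 (interval −0.15 to 0.97). POR1 (YALI0_D12628g), an activator of fatty acid use, was at 144 and 93.5 CPM in the mutant and 115, 139 and 141 with acid, against 221 to 320.1 in the untreated wild type (log2 −0.15 ± 0.23, interval −0.66 to 0.36). YAS2 (YALI0_E32417g), a factor of the alkane response, was called lower (log2 −1.23 ± 0.39, adjusted p = 0.0474), and not without mutant replicate 1 (−0.86) or wild-type replicates 2 (−1.31) or 3 (−0.90), nor with total counts (−1.03) or only the 2 groups (−1.22). None of the 8 tested genes on the list of mitochondrially encoded genes was called, against 19.8% of all genes. Of these 8, 1 had an unadjusted p under 0.05, and DESeq2 called none. None had an interval inside the range, at levels of 0.604 to 19.7 CPM in the mutant. The rows YalifMr30 and YalifMr31 are not on that list and are given under other observations.

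Outside the lists, the called genes furthest apart in each direction, among those whose groups did not overlap and whose higher group had a mean of at least 20 CPM, have no name in the sources used here. YALI0_E23859g was at 90.9 and 77.5 CPM in the untreated mutant against 0.530, 0.333 and 0.465 in the acid state, 182-fold higher (log2 7.51 ± 0.31, adjusted p = 2.00e-07), with 8.62 to 9.69 CPM in the untreated wild type between them. YALI0_A14883g was higher by 7.21 ± 0.96 on the log2 scale, with mutant libraries far apart at 53.0 and 490.5 CPM and no library of either wild-type group above 3.30. Its difference was 8.07 without mutant replicate 1 and 4.86 without replicate 2. In the other direction, YALI0_B06028g was at 0.760 and 0.639 CPM against 134, 123 and 173 (log2 −7.67 ± 0.39), and YALI0_C19822g at 12 and 2.62 against 651, 802 and 972 (log2 −6.80 ± 0.60). The untreated wild type had 0.150 to 0.404 CPM of the former and 3.0 to 3.46 CPM of the latter. Without mutant replicate 1, the library at the higher level, YALI0_C19822g differed by −8.26, and without replicate 2 by −6.07.

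Other genes outside the lists stood at the acid level in the mutant without acid. YALI0_A17919g was at 498 and 414 CPM in the mutant and 585, 429.9 and 519 with acid (log2 −0.17 ± 0.31, interval −0.85 to 0.52), where the untreated wild type had 14.4, 6.20 and 9.75. YALI0_F07128g was at 19.8 and 23.1 CPM in the mutant and 19.5, 19.8 and 19.6 with acid, where the untreated wild type had 0.288 to 0.525. Another pair stood below the untreated wild type in both groups. YALI0_E18326g was at 39.3 and 30.8 CPM in the mutant and 26.0, 31.1 and 25.9 with acid, against 141 to 301 in the untreated wild type, and YALI0_B00154g at 10.6 and 8.89 in the mutant and 12.2, 7.55 and 11.5 with acid, against 37.9 to 72.8. These 4 genes had intervals inside 1 log2 unit and were picked, with no minimum level, for the largest value of the smaller of their changes from the untreated wild type, so their distance from it is a description.

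The libraries outside the comparison show where its called genes sit in the series. Of the 731 genes higher in the untreated mutant, the mean log2 CPM of the untreated wild type was nearer to the mutant for 550 (75.2%) and nearer to the acid-treated wild type for 181. Of the 519 lower genes it was nearer to the mutant for 450 (86.7%). Over all tested genes the share was 66.8%. A gene whose mutant level lies between both wild-type groups always counts as nearer to the mutant here. The count thus does not show which wild-type group the mutant itself lay nearer to. The same count for the mutant with acid gave 25.6% nearer to the untreated mutant among higher genes and 38.3% among lower genes, against 44.4% of all tested genes. There, a gene whose acid-treated wild-type level lies between both mutant groups always counts as nearer to the acid-treated wild type.

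By list, the untreated wild type was nearer to the untreated mutant for all 8 called TCA genes and all 5 called in the glyoxylate list. For beta-oxidation it was so for 7 of 9, the other 2 being ANT1 and PXA1, where 86.7% of all lower genes were. All 6 called fatty acid synthesis genes were too, against 75.2% of all higher genes. IDH1 and CIT2 are counted so although their mutant level lay between both wild-type groups. With acid, the mutant was nearer to the acid-treated wild type for 7 of 8 TCA genes and 6 of 9 beta-oxidation genes. The latter is near the 61.7% of all lower genes. It was nearer to the untreated mutant for 5 of 6 fatty acid synthesis genes, against 25.6% of all higher genes. FAS1 was at 3009.9 to 3341 CPM in the mutant with acid, and IDH1 at 2279, 2444 and 2018. These counts are descriptions without a test.

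**Figure D5:**
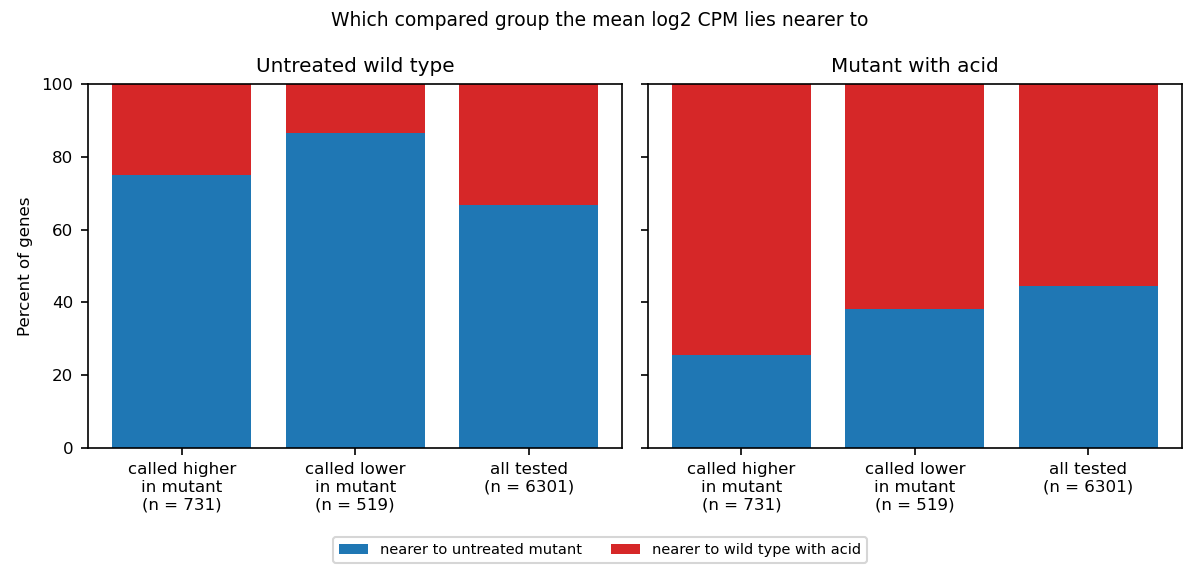
Percent of genes whose mean log2 CPM in the untreated wild type (left) or the mutant with acid (right) was nearer to the untreated mutant (blue) or to the wild type with acid (red), for genes called higher, called lower and all tested genes. The untreated wild type was nearer to the untreated mutant for 75.2% and 86.7% of called genes, the mutant with acid for 25.6% and 38.3%. In the left panel, genes with the mutant between both wild-type groups always count as nearer to the untreated mutant. In the right panel, genes with the acid-treated wild type between both mutant groups always count as nearer to the acid-treated wild type.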

How the data were processed

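RNA-seq libraries were made from total RNA with a directional kit and sequenced on an Illumina NovaSeq, per the labels' protocols. STAR 2.7.9a, HTSeq 0.11.0, DESeq2 1.32.0, SAMtools 1.9 and FastQC 0.11.7 are listed, with no order, in the submitters' processing notes. Neither build nor annotation nor strand setting is given in the sources used here, so reads of overlapping, antisense or near-identical genes are not separated. The deposited counts are whole reads per gene. The deposited normalized counts, a signal, equal the counts over 1 constant per library when tested on the values, and entered no test.

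Counts were fitted in R 4.3.3 with edgeR 4.0.16: TMM scaling, filterByExpr (6301 of 7135 genes kept), 1 mean per group over all 11 libraries, robust quasi-likelihood F tests, and Benjamini-Hochberg adjustment over all tested genes. Standard errors are the absolute log2 difference divided by the square root of F, and 95% intervals use the t quantile of the fit. The intervals are not adjusted over genes. The script was tested on simulated data. The common biological coefficient of variation was 23.8%. Counting chi-square per degree of freedom between libraries of 1 group was 48.6 or more, so each library counted as 1 replicate. The labels name separate colonies, and p-values measure the spread between these libraries.

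Alternatives were other scalings and filters, DESeq2 1.42.0, only the 2 groups, each library left out, and a replicate block. Members, lists and comparison were chosen with earlier results of these data known. Named genes were the altered genes, up to 4 called and 2 inside-range genes per list, all of a list of 4 or fewer, and at most 2 unnamed tags per direction. Of 143 listed genes 137 were tested. No table tag matched the RefSeq table used here (0 matches), so lists by gene description were not built, and acyl-CoA ligases other than FAA1 and FAT1 and fatty aldehyde dehydrogenases were not listed.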

Additional observations from a re-analysis of the deposited data

How the results depend on the processing

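Of the 64 genes chosen by the naming rule 37 were called. Of these, 22 kept the call under every alternative run, 15 lost it in at least 1, and 2 of the 27 others gained it, YHT4 and ALK6, when mutant replicate 2 was left out. Genes named after their values were seen are not in these counts. None of the 64 that was called in any setting changed direction. Leaving out 1 of the 5 libraries gave 746 to 1070 calls (445 to 667 higher, 301 to 488 lower), 173 to 386 past 2-fold, and 2338 to 2938 intervals inside 1 log2 unit. In the same fits the lists had 3 to 8 calls for the TCA cycle, 3 to 5 for the glyoxylate list, 1 to 2 for hexose transport, 0 to 2 for the NADPH list, 1 to 2 for glycerolipids, 0 to 1 for lipases, 0 to 4 for the alkane list and 0 to 1 for regulators. With only the 2 groups compared, 182 genes passed 2-fold, and calls were 3 in the glyoxylate list, 1 in the NADPH list, 0 for glycerolipids, lipases and regulators, and 2 in the alkane list. Total counts gave 0 calls for lipases and regulators, and DESeq2 gave 2 in glycolysis. Where results moved, the cause was not tested.

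The same replicate numbers did not go with shared deviations between the groups (r = −0.01 and −0.02 by title number, 0.02 and 0.02 by description number). A replicate block by title number gave 896 calls, with 1 glycerolipid gene, 0 lipases and 0 regulators, and among listed genes FBP1, MLS2, OLE1, GPD1, PEX23, TGL4 and YAS2 lost their calls and PCK1 and ACS gained one. The replicate block by description number gave 985 calls, with 1 glycerolipid gene, and PEX10, FBP1, OLE1, GPD1 and ALK1 lost theirs. None of the 8 tested genes on the mitochondrially encoded list had an interval inside 1 log2 unit, so 2-fold differences in them were not resolved. Why was not tested, and 2 mutant libraries limit the precision of every value.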

Other observations

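Rows outside the lists, chosen after their values were seen, were read as values. YalifMr31, a row the tables list by that name, was at 117 and 109.8 CPM in the untreated mutant against 204, 231 and 329 in the acid state, and YalifMr30 at 147 and 142 against 262, 257 and 341. YalifMr31 was called lower in the mutant (log2 −1.17 ± 0.35, adjusted p = 0.0355) and YalifMr30 was not (log2 −0.99 ± 0.37, adjusted p = 0.0893). RPR1 and SCR1, which share their names with the RNase P and signal recognition particle RNAs of Saccharomyces cerevisiae, did not pass (log2 0.33 ± 0.63 and −0.40 ± 0.72).

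YALI0_C11165g, chosen after its values were seen, was the most abundant gene of the untreated mutant in the plot of all tested genes, at 16743 and 23211 CPM against 1052, 351 and 535 in the wild type with acid and 30.0 to 240.0 in the untreated wild type (log2 4.95 ± 0.80, adjusted p = 0.00153). By the chromosome letter of the locus tag, 17.2% (F) to 22.4% (C) of tested genes were called, and the median log2 difference per chromosome was between −0.02 and 0.04.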
